A study of Homo sapiens with 16 samples.

Results

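The 9 genes followed here encode the enzymes that make serine (PHGDH, PSAT1 and PSPH), those that pass its carbon to folate (SHMT1, SHMT2, MTHFD1, MTHFD2 and MTHFD1L) and a serine transporter (SLC1A4). The set was chosen by the measured signal of PSAT1, which was well above background in LP-1-cIAP2-eGFP cells alone, and the other 8 genes were added for their place in the pathway. They are 9 of the 20503 genes with a matched probe on the array, they have 14 probes, and all 14 passed the filter on signal, so that none was lost. The question was whether the rest of the pathway followed PSAT1 over the 8 conditions.

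Cells make serine from the glycolytic intermediate 3-phosphoglycerate in consecutive steps, with PHGDH first, the aminotransferase PSAT1 second and the phosphatase PSPH last. The hydroxymethyltransferases SHMT1, in the cytosol, and SHMT2, in mitochondria, split serine into glycine and a carbon unit carried on folate, which MTHFD enzymes convert for the synthesis of purines and thymidylate. In many cell types the genes of this pathway respond to the transcription factor ATF4 when amino acids are short or unfolded protein accumulates, and plasma cell tumours make large amounts of secreted protein.

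LP-1 is an established human multiple myeloma line with deleted or mutated TRAF3, a background that all groups share. LP-1-cIAP2-eGFP cells were transduced with a lentivirus carrying cIAP2 (BIRC3) and eGFP, the control LP-1-eGFP cells with a virus carrying eGFP, and both were sorted for eGFP. Each line is therefore the product of a separate transduction and sort, and cIAP2 cannot be told apart from anything else by which the sorted populations differ. Each line was left untreated or received 10 nM of the proteasome inhibitor bortezomib, for 6 h or 24 h, in 2 biological replicates per condition, which gave 16 single-colour arrays. Values are normalized log2 signals of the brightest tested probe of a gene, and a gene was called when its Benjamini-Hochberg adjusted p over all probes was below 0.05. Levels are compared between samples for the same probe, and a list's brightest gene is named by signal, which is not an amount of transcript.

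The probe for BIRC3 read 11.92 to 12.13 in the 4 untreated LP-1-cIAP2-eGFP arrays and 13.54 to 13.67 in the 4 untreated LP-1-eGFP arrays. According to the study's methods this probe sees the endogenous transcript only, so it does not check the label. Of 9 plasma cell markers, 8 or 9 were well above background on every array, with XBP1 the brightest, whereas the B cell marker genes MS4A1 and PAX5 and the myeloid marker CSF1R were on no array. Of the 4 B cell markers, 1 or 2 were above background on each array. Of the 4 T cell markers it was 0 to 4, of 3 myeloid markers 0 to 2 and of 4 epithelial markers 2 to 4. The signal summed over the T cell list, in which CD2 was mostly the brightest, was 90.2 to 368 on 15 arrays and 2980 on the array described next. There the myeloid list (brightest CD14) and the epithelial list (brightest KRT8) also had their highest sums, 442 and 3410, against lowest sums of 63.4 and 1100. On that array 1 of 4 T cell, 0 of 3 myeloid and 2 of 4 epithelial markers were well above background. The sums count signal whether or not it was above background, so a high sum there does not show that these markers were detected. The part of these markers in the results was not tested. In LP-1-cIAP2-eGFP replicate 1 of the 24 h bortezomib arrays, here called the dim array, stands apart. It had 35.5% of its spots above background, against 49.0% to 71.1% on the others, and the probes of its replicate pair differed with an SD of 1.48, against 0.495 to 0.773 in the other 7 conditions. The arrays lay on 2 slides, with 6 LP-1-cIAP2-eGFP and 2 LP-1-eGFP arrays on slide 1 and the opposite split on slide 2. An averaged line difference within slide 1 covers untreated cells at 6 h and bortezomib at 24 h. Within slide 2 it covers untreated cells at 6 h and 24 h.

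PSAT1 and PHGDH went in opposite directions between the lines. PSAT1 read 9.07 to 10.7 on the 8 LP-1-cIAP2-eGFP arrays and was well above background on all 8, while it read 2.62 to 4.13 in LP-1-eGFP and was well above background on 0 of 8. Because the gene was chosen for this difference, it is given as a description. The lines are further apart than the least signal that could be measured in LP-1-eGFP allows to quantify, so that the folds are bounds. In untreated LP-1-cIAP2-eGFP cells PSAT1 was at least 32.9-fold higher than in LP-1-eGFP at 6 h and at least 39.7-fold at 24 h. With bortezomib it was at least 62.4-fold higher at 6 h and at least 36.6-fold at 24 h. A bound sets the LP-1-cIAP2-eGFP mean against the weakest signal counted as well above background on each LP-1-eGFP array. The other PSAT1 probe was well above background on 5 arrays of 8 in LP-1-cIAP2-eGFP, against 0 of 8 in LP-1-eGFP. In the conditions with both LP-1-cIAP2-eGFP arrays above background it gave smaller bounds, at least 2.35-fold for untreated cells at 24 h and at least 3.63-fold for bortezomib at 6 h.

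Within LP-1-cIAP2-eGFP, PSAT1 read 9.29 and 9.07 in the untreated cells at 6 h and 10.7 and 10.66 after bortezomib. The treated arrays lay above the untreated ones, a difference of 1.5 ± 0.331 (log2, SE) whose adjusted p of 0.0746 did not pass. It did pass, with an adjusted p as low as 0.032, when any of 4 treated arrays was left out, those of LP-1-eGFP at 6 h and those of LP-1-cIAP2-eGFP at 24 h. At 24 h the untreated arrays read 9.73 and 9.29 and the treated ones 9.46 and 9.98, which overlapped (0.21 ± 0.331, adjusted p = 0.662). No response could be measured in LP-1-eGFP, where PSAT1 was not above background under any condition.

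PHGDH, the enzyme just before PSAT1 in the pathway, was lower in LP-1-cIAP2-eGFP. In untreated cells it read 9.74, 9.44, 10.04 and 9.57 in that line and 12.92, 12.90, 13.31 and 12.80 in LP-1-eGFP. After bortezomib the values were 10.57, 10.13, 9.77 and 10.30 against 13.47, 13.54, 13.23 and 13.43. The lines did not overlap on any of the 16 arrays, and the lowest LP-1-eGFP value lay above the highest LP-1-cIAP2-eGFP value by more than the spread within either line. Averaged over treatment and time the difference was -3.26 ± 0.132 (log2, SE), a 9.55-fold lower signal (adjusted p = 3.65e-07), and it ranked 57 from the lowest of 16392 genes. The untreated means were 9.70 ± 0.26 (SD, n = 4) and 12.98 ± 0.23 (SD, n = 4). The difference was nearly the same in each condition, at -3.32 and -3.25 in untreated cells and -3.16 and -3.29 with bortezomib, for 6 h and 24 h in turn. Within slide 1 it was -3.18 and within slide 2 it was -3.48, and leaving out any array left it between -3.32 and -3.19. PHGDH has a single probe on this array.

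The promoters of this opposed pair are shown as RefSeq sequence of assembly GRCh38.p14, from 250 bases before to 50 bases after the start site, 5′ to 3′ on the plus strand. They are PSAT1 at chr9:78296875-78297174 and PHGDH at chr1:119711684-119711983.
PSAT1: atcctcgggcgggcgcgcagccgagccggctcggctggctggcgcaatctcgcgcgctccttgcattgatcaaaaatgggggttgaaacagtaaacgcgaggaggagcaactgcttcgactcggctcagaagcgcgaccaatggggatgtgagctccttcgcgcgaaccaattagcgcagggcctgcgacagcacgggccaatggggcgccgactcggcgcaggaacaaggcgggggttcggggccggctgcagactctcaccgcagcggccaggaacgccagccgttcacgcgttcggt
PHGDH: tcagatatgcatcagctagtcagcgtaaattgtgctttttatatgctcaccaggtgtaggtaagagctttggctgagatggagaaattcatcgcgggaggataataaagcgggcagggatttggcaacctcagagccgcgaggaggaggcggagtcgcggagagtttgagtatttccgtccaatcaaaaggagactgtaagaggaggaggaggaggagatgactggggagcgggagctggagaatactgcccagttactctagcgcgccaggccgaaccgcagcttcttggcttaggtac
The PSAT1 window is richer in G and C, at 66.0% against 52.7% for PHGDH. Neither window held the letters TGATGNAA, the core of the C/EBP-ATF response element to which ATF4 binds, TGACNNNGC, the antioxidant response element core, or CACGTG, the E-box, on either strand. These letters occurred in 3.62%, 13.3% and 7.26% of all 35116 windows of that length.

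PSPH, the last enzyme of serine synthesis, followed neither gene. It read 12.50 to 13.64 in LP-1-cIAP2-eGFP and 12.73 to 14.35 in LP-1-eGFP, ranges that overlapped, with a difference of -0.33 ± 0.139 (adjusted p = 0.155). Without the untreated 24 h array of LP-1-eGFP replicate 2, that difference was -0.46 and passed (adjusted p = 0.00841). PSPH has a close pseudogene copy, PSPHP1, and its probe may also read that transcript.

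**Figure D1:**
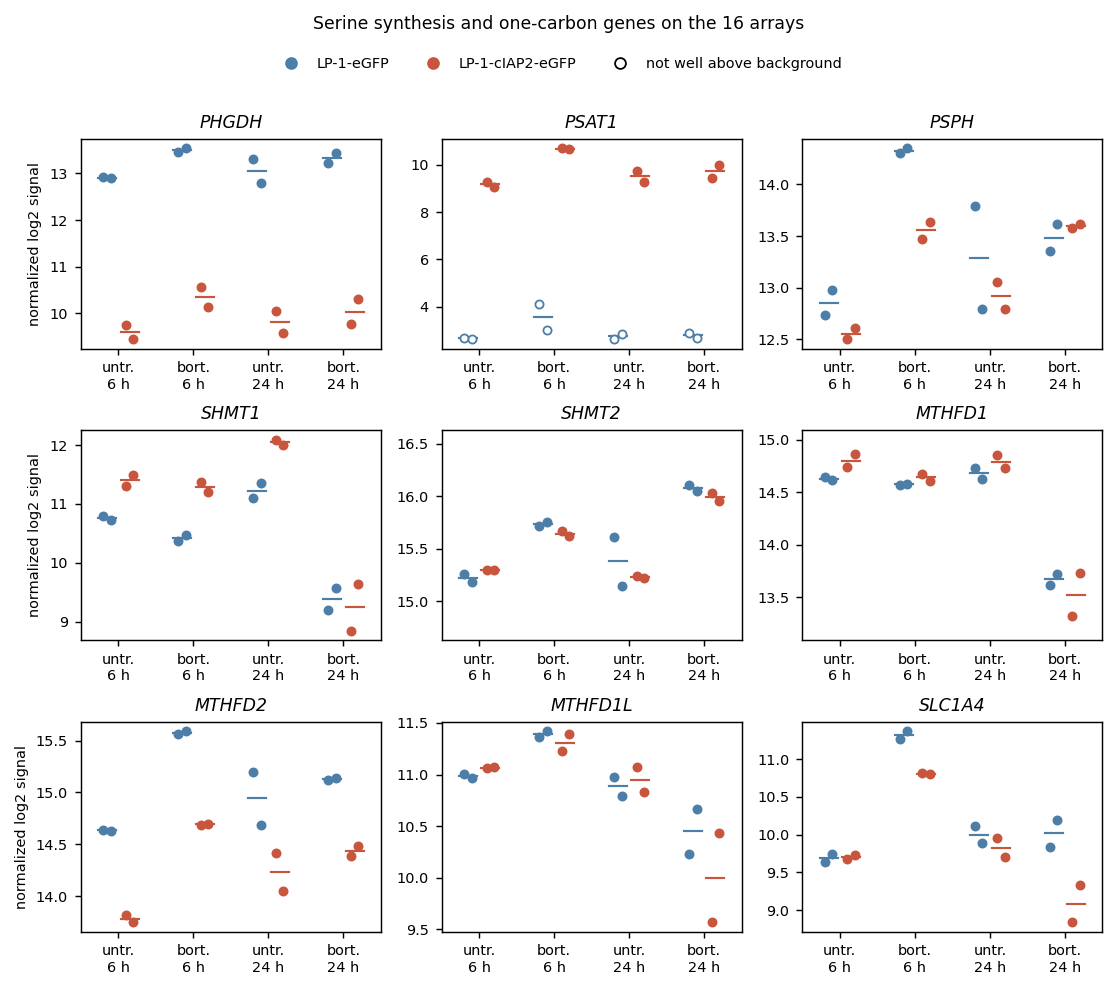
Normalized log2 signal (vertical axes, on different scales) of the brightest probe of each of the 9 genes in untreated (untr.) and bortezomib-treated (bort.) cells at 6 h and 24 h. Each point is an array and each short line the mean of 2, in blue for LP-1-eGFP and red for LP-1-cIAP2-eGFP, with open points where the probe was not well above background. The lines are apart on all arrays for PHGDH, 9.44 to 10.57 against 12.80 to 13.54, and in the other direction for PSAT1.

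Of the 8 genes other than PSAT1, 4 differed between the lines averaged over treatment and time. PHGDH, MTHFD2 and SLC1A4 were lower in LP-1-cIAP2-eGFP and SHMT1 was higher. Over all genes tested, 12.7% were called lower and 9.04% higher, and the median difference was -0.01. Of the 9 plasma cell markers 3 were higher in LP-1-cIAP2-eGFP, SDC1 (1.42), MZB1 (0.50) and POU2AF1 (0.34), and 1 was lower, CD38 (-0.55). Of the markers of other cell types CD3D (-1.14), ITGAM (-1.22) and KRT18 (-0.41) were lower, 1 in each of the T cell, myeloid and epithelial lists. On LP-1-cIAP2-eGFP replicate 1 with bortezomib at 6 h, 0 T cell and 0 myeloid markers were above background. The CD3D and ITGAM values are therefore no exact differences. The part of these markers in the members' differences was not tested. MTHFD2, the mitochondrial enzyme that oxidizes methylene-folate, read 13.82, 13.75, 14.42 and 14.05 in untreated LP-1-cIAP2-eGFP cells and 14.64, 14.63, 15.20 and 14.69 in untreated LP-1-eGFP cells. With bortezomib it read 14.69, 14.70, 14.39 and 14.48 against 15.56, 15.59, 15.12 and 15.14. Within each of the 4 conditions every LP-1-cIAP2-eGFP array lay below both LP-1-eGFP arrays, a difference of -0.78 ± 0.0912 (adjusted p = 2.99e-04). It was -0.75 within slide 1 and -0.89 within slide 2.

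SHMT1 was higher by 0.54 ± 0.124 (adjusted p = 0.0141) on average, but not in every condition. It was higher by 0.64 and 0.82 in untreated cells and by 0.85 with bortezomib at 6 h, none of which passed by itself, and it was -0.14 with bortezomib at 24 h. Without the dim array the first 3 passed (adjusted p = 0.0415, 0.0157 and 0.0124), and the 24 h value with bortezomib was 0.26 (adjusted p = 0.576). Without the replicate of the dim array that 24 h value was -0.55 and passed as lower (adjusted p = 0.0451). The second SHMT1 probe gave 0.33 (adjusted p = 0.24), and when both probes were averaged the difference was 0.44 (adjusted p = 0.075). It was 0.32 within slide 1 and 0.74 within slide 2, which are averages over different conditions. SLC1A4, which carries serine, alanine and other neutral amino acids across the plasma membrane, was lower on average, by -0.40 ± 0.0971 (adjusted p = 0.0188). In untreated cells the lines differed by 0.01 at 6 h and -0.17 at 24 h, and with bortezomib by -0.52 at 6 h and -0.93 at 24 h. Within slide 1 (untreated 6 h and bortezomib 24 h) the average was -0.41, and within slide 2 (untreated cells alone) it was -0.11. These cover different treatments. The averaged call was lost when slide was added as a block (-0.40, adjusted p = 0.0971). It was also lost, at adjusted p-values of 0.0519 to 0.0524, without any of 3 arrays, all of replicate 2, which were the untreated 24 h array of LP-1-cIAP2-eGFP and the untreated and treated 6 h arrays of LP-1-eGFP. SHMT2, MTHFD1 and MTHFD1L differed by -0.06, 0.05 and -0.10. Their 95% intervals were -0.23 to 0.11, -0.12 to 0.22 and -0.39 to 0.19.

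Tested in each condition alone, 7 of the 32 differences passed. These were PHGDH in all 4 conditions (highest adjusted p = 2.16e-04), MTHFD2 at 6 h without and with bortezomib (-0.85, adjusted p = 0.0381, and -0.88, adjusted p = 0.0316) and SLC1A4 with bortezomib at 24 h (-0.93, adjusted p = 0.0236). Of all genes, 4.39% were called in untreated cells at 6 h, 4% at 24 h, 4.74% with bortezomib at 6 h and 8.06% at 24 h. Both MTHFD2 calls were lost without any of 10 arrays, at adjusted p-values up to 0.221 and 0.193, and with slide as a block, at 0.0612 and 0.118. At 6 h with bortezomib each line lay on a slide of its own, so that line and slide cannot be told apart in that condition. With the slide block the SLC1A4 call at 24 h was lost as well (-0.92, adjusted p = 0.0616). It was lost without the dim array, at -0.69 (adjusted p = 0.07), and without either LP-1-eGFP array of that condition, at adjusted p-values of 0.0512 and 0.133. Leaving out the dim array let 10 of the 32 pass, among them SHMT1 in 3 conditions and MTHFD2 in untreated cells at 24 h (adjusted p = 0.048). Leaving out its replicate let 15 of the 32 pass, and leaving out either LP-1-eGFP array of that treatment and time let 4 pass. PSAT1, whose line difference chose it, was left out of these counts. By the cutoffs of the study's methods, which asked for more than 2-fold, PHGDH was the 1 member called of the other 8. This held for a 3-way analysis, which called 3.39% of all genes. It also held for a comparison of the lines as groups of 8 arrays, a grouping chosen here, which called 4.48%.

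**Figure D2:**
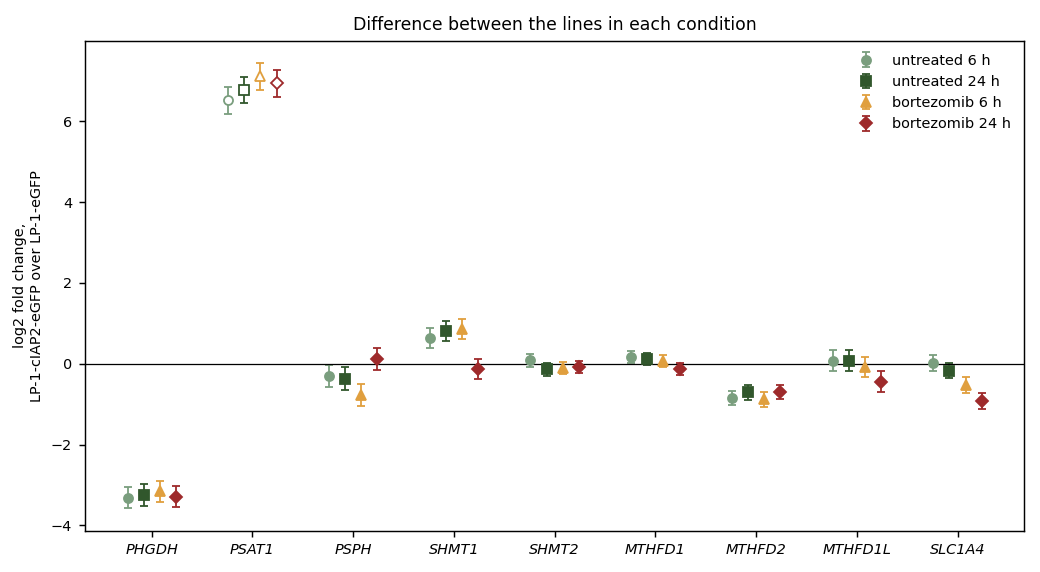
Log2 fold change of LP-1-cIAP2-eGFP over LP-1-eGFP (vertical axis) for each of the 9 genes in the 4 combinations of treatment and time, with bars of ± 1 SE from the fit. Open points mark PSAT1, whose LP-1-eGFP signal was below background, so that the value plotted is no measured fold. PHGDH lies between -3.32 and -3.16 in every condition, and the SLC1A4 points run from 0.01 to -0.93.

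After 6 h of bortezomib, some genes of the pathway rose and none was called lower. In LP-1-eGFP 3 of the 8 measured members rose, SLC1A4, PSPH and MTHFD2, where 1.91% of all genes rose and 0.957% fell. In LP-1-cIAP2-eGFP SLC1A4 rose, 1 of 9, where 1.11% of all genes rose and 0.366% fell. SLC1A4 read 9.64 and 9.74 in untreated LP-1-eGFP and 11.27 and 11.37 with bortezomib, a rise of 1.63 ± 0.194 (adjusted p = 0.00462). In LP-1-cIAP2-eGFP it read 9.68 and 9.73, then 10.81 and 10.80, a rise of 1.10 ± 0.194 (adjusted p = 0.032). Treated and untreated arrays did not overlap in either line.

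PSPH read 12.73 and 12.98 in untreated LP-1-eGFP and 14.30 and 14.35 after 6 h of bortezomib, a rise of 1.47 ± 0.279 (adjusted p = 0.0307). In LP-1-cIAP2-eGFP it read 12.50 and 12.61, then 13.47 and 13.64, a difference of 1.00 ± 0.279 that did not pass (adjusted p = 0.163). MTHFD2 rose by 0.94 ± 0.182 in LP-1-eGFP (adjusted p = 0.0334), with a difference of 0.91 ± 0.182 in LP-1-cIAP2-eGFP (adjusted p = 0.0533). The PHGDH difference was 0.60 and 0.76 in LP-1-eGFP and LP-1-cIAP2-eGFP, with adjusted p-values of 0.416 and 0.28. SHMT1, SHMT2, MTHFD1 and MTHFD1L were not called at 6 h in either line and ranged from -0.33 to 0.52. The calls at 6 h were fragile. Leaving out any of 10 arrays, 4 of them LP-1-eGFP arrays of that time, removed the PSPH call, and the same number removed the MTHFD2 call in LP-1-eGFP and the SLC1A4 call in LP-1-cIAP2-eGFP, with estimates between 1.34 and 1.59, 0.93 and 0.96, and 1.07 and 1.12. With slide as a block these 3 calls were lost too, at adjusted p-values of 0.0793, 0.0683 and 0.0961. Leaving out any of the 4 arrays compared removed the SLC1A4 call in LP-1-eGFP, with estimates between 1.58 and 1.68 and adjusted p-values up to 0.0609.

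At 24 h members were called in both directions. SHMT1 and MTHFD1 fell and SHMT2 rose in both lines. In LP-1-eGFP these were 1 higher and 2 lower of 8, where 13.3% of all genes rose and 15.1% fell. In LP-1-cIAP2-eGFP 1 rose and 4 fell of 9, where 14.4% rose, 22% fell and the median over all genes was -0.16. The members called higher, in both lines, and lower, in LP-1-eGFP, were few and near these shares. SHMT1, the cytosolic hydroxymethyltransferase, read 11.10 and 11.35 in untreated LP-1-eGFP and 9.20 and 9.58 with bortezomib, and fell by 1.83 on the log2 scale (SE 0.247, adjusted p = 6.7e-04). In LP-1-cIAP2-eGFP it read 12.09 and 12, then 8.85 on the dim array and 9.65 on its replicate, and fell by 2.80 on the log2 scale (SE 0.247, adjusted p = 4.97e-05). Without the dim array that difference was -2.39 (adjusted p = 6.54e-05). The second SHMT1 probe gave -0.95 (adjusted p = 0.0758) and -2.14 (adjusted p = 0.0012).

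SHMT2, the mitochondrial counterpart, moved the other way. It read 15.61 and 15.15 in untreated LP-1-eGFP and 16.11 and 16.05 with bortezomib, a rise of 0.70 ± 0.154 (adjusted p = 0.00952). In LP-1-cIAP2-eGFP it read 15.24 and 15.22, then 16.03 and 15.96, a rise of 0.76 ± 0.154 (adjusted p = 0.00497). The treated arrays lay above the untreated ones in both lines. The rise in LP-1-eGFP was lost without treated replicate 1 (0.67, adjusted p = 0.0608) and without untreated replicate 2 (0.47, adjusted p = 0.0573).

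MTHFD1, the cytosolic trifunctional folate enzyme, read 14.73 and 14.63 in untreated LP-1-eGFP and 13.62 and 13.72 with bortezomib, and fell by 1.01 on the log2 scale (SE 0.152, adjusted p = 0.00119). In LP-1-cIAP2-eGFP it read 14.85 and 14.73, then 13.32 and 13.73, and fell by 1.26 on the log2 scale (SE 0.152, adjusted p = 2.67e-04). MTHFD1L, the mitochondrial enzyme that releases formate, fell by 0.96 on the log2 scale in LP-1-cIAP2-eGFP (adjusted p = 0.0207), with -0.43 (adjusted p = 0.315) in LP-1-eGFP. Without the dim array, which read 9.57 against 10.43 on its replicate, the difference was -0.53 and did not pass (adjusted p = 0.0806), and it did not pass without either untreated array of that time (adjusted p = 0.119 and 0.0539), nor with slide as a block (adjusted p = 0.0502). The other 3 MTHFD1L probes gave 0.04, -1.3 and -0.80 in LP-1-cIAP2-eGFP and -0.12, -0.22 and -0.69 in LP-1-eGFP, so they disagreed, and the last passed in LP-1-eGFP too (adjusted p = 0.0451). SLC1A4 read 9.95 and 9.70, then 8.84 and 9.33 in that line, and fell by 0.74 on the log2 scale (adjusted p = 0.0182). Without the dim array it was -0.50 (adjusted p = 0.0783), and without replicate 1 of the untreated cells -0.61 (adjusted p = 0.12). In LP-1-eGFP it read 10.11 and 9.89, then 9.84 and 10.19, which overlapped. PHGDH, PSPH and MTHFD2 were not called at 24 h in either line, with differences of 0.18 to 0.68. PSPH passed in LP-1-cIAP2-eGFP without either untreated LP-1-eGFP array of that time (0.68, adjusted p = 0.0148), and in LP-1-eGFP without replicate 1 of them (0.70, adjusted p = 0.0447).

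**Figure D3:**
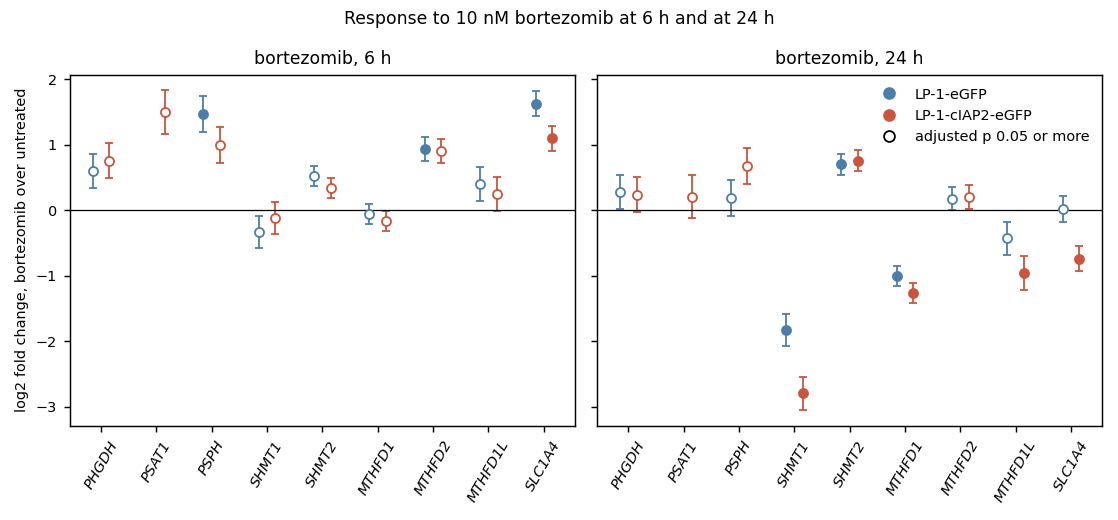
Log2 fold change of bortezomib-treated over untreated cells (vertical axis, bars ± 1 SE) for the 9 genes at 6 h (left) and 24 h (right), in LP-1-eGFP (blue) and LP-1-cIAP2-eGFP (red). Filled points have an adjusted p below 0.05, and PSAT1 in LP-1-eGFP is left out. SLC1A4 has the largest called rise at 6 h, 1.63 and 1.10, with PSAT1 uncalled at 1.5 in LP-1-cIAP2-eGFP, and SHMT1 has the largest fall at 24 h, -1.83 and -2.80.

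No member was called for a difference between the lines in its response to bortezomib, at 6 h or at 24 h. For the 8 members the difference of responses ran from -0.53 to 0.21 at 6 h, where limma called 0% of all genes and 0 members had an unadjusted p under 0.05. At 24 h it ran from -0.97 to 0.49, where 0.104% of all genes were called and 2 members, SHMT1 and SLC1A4, had an unadjusted p under 0.05. The 24 h difference was -0.97 ± 0.349 for SHMT1 (95% interval -1.75 to -0.19, adjusted p = 0.551) and -0.76 ± 0.275 for SLC1A4 (-1.37 to -0.14, adjusted p = 0.556). Without the dim array these differences were -0.56 (adjusted p = 0.587) and -0.51 (adjusted p = 0.626). With the dim array as the only array of its condition, 3 members passed. Between 6 h and 24 h in untreated cells limma called 0 of the 8 members, with differences from -0.11 to 0.55, and 2 had an unadjusted p under 0.05. Of all genes, 0.0122% were called.

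SLC1A4 and MTHFD1L held the letters TGATGCAA, a form of TGATGNAA, in a promoter window, and the windows are shown because SLC1A4 gave the largest called rise of the members at 6 h in both lines. Capitals mark the match, which is on the minus strand in SLC1A4. The SLC1A4 window, at chr2:64989149-64989448 on the plus strand, belongs to 1 of its 2 start sites, and the match begins 7 bases before the start. The MTHFD1L window, at chr6:150866236-150866535 on the plus strand, has it 129 bases before the start. It is 1 of 4 windows of the gene, of which 3 overlap and hold the same match and 1 holds none.
SLC1A4: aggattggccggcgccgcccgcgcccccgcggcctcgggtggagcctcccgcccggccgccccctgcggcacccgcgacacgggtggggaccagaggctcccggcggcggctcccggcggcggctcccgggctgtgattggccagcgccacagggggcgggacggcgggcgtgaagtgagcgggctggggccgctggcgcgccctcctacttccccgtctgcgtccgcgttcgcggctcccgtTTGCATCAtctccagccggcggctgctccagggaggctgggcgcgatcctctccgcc
MTHFD1L: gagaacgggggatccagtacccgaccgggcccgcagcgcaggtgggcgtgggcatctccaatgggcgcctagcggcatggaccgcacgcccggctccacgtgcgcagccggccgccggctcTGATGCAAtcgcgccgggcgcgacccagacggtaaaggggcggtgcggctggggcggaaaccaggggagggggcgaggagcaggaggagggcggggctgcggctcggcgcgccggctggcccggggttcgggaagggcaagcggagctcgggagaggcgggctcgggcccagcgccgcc
PSAT1, PHGDH, SHMT1, MTHFD1 and MTHFD2 held no such match in their windows, while MTHFD1 and MTHFD1L held an E-box and MTHFD2 the antioxidant response element core. The table gave windows for 7 of the 9 genes, and PSPH and SHMT2 had no entry.

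Among 7 genes that break serine or glycine down, 1 was higher and 2 were lower in LP-1-cIAP2-eGFP, where 9.04% and 12.7% of all genes were. SDSL, a serine dehydratase-like enzyme, gave 8.18 to 9.31 (median 8.41) in LP-1-cIAP2-eGFP and 13.01 to 13.55 (median 13.11) in LP-1-eGFP. The lines did not overlap, and the difference was -4.66 ± 0.0811 (adjusted p = 2.7e-09). GLDC, the decarboxylase of the mitochondrial glycine cleavage system, was lower by -0.47 (adjusted p = 0.00411). GCSH, the carrier protein of that system, was higher by 0.27 (adjusted p = 0.0238), with 1 LP-1-eGFP array missing and the call lost without any of 9 arrays. After 24 h of bortezomib GLDC (-1.79 and -1.93) and GCSH (-1.85 and -1.62) fell in LP-1-eGFP and LP-1-cIAP2-eGFP, and SDSL rose in LP-1-cIAP2-eGFP (0.83, adjusted p = 0.00418). The missing GCSH array is of LP-1-eGFP cells at 24 h, so that the value of -1.85 has a single array on 1 side. Of 7 serine and glycine transporters tested, limma called 0 between the lines. At 6 h 1 rose in LP-1-eGFP, the neutral amino acid exchanger SLC1A5 (1.44, adjusted p = 0.0397), which gave 1.15 in LP-1-cIAP2-eGFP (adjusted p = 0.121). SLC38A5, which carries glutamine and serine, fell at 24 h (-2.48 and -2.56, with LP-1-eGFP first), and in LP-1-cIAP2-eGFP SLC38A2 rose by 1.91 (adjusted p = 0.00131), against 0.90 in the LP-1-eGFP line (adjusted p = 0.0654).

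After 24 h of bortezomib, purine synthesis genes and some of the other folate genes were called lower. All 6 purine synthesis genes fell in LP-1-cIAP2-eGFP and 5 of 6 in LP-1-eGFP, with medians of -1.48 and -1.24, against -0.16 and -0.03 over all genes. Among them were PAICS (-1.83 and -2), PFAS (-2.09 and -1.56), GART (-2.07 and -1.5) and ATIC (-1.13 and -0.80), with LP-1-cIAP2-eGFP given before LP-1-eGFP. PAICS was also higher by 0.34 between the lines (adjusted p = 0.00992). Of 13 other folate enzymes and carriers, 7 fell in LP-1-cIAP2-eGFP and 6 in LP-1-eGFP, and 0 rose in either. The shares of all genes that fell, which apply to each list here, were 22% and 15.1%. In the same order, they included the reduced folate carrier SLC19A1 (-2.57 and -2.29), thymidylate synthase TYMS (-1.62 and -1.44) and the formyltransferase MTFMT (-1.3 and -1.11). SLC19A1 was fitted with 1 array missing in each line. Its LP-1-cIAP2-eGFP value has the dim array as its only treated array, so that this fall, counted among the 7, could not be checked without it. Between the lines MTHFS and SLC25A32, the mitochondrial folate carrier, were higher by 0.31 (adjusted p = 0.00815) and 0.26 (adjusted p = 0.0156), the latter lost without 1 array (adjusted p = 0.0517). At 24 h 10 of 14 DNA replication and proliferation genes also fell in LP-1-cIAP2-eGFP and 11 in LP-1-eGFP, while RRM1 rose in both lines (0.58 and 0.85) and RRM2 rose in LP-1-cIAP2-eGFP (0.76) and fell in LP-1-eGFP (-0.62). Those that fell included TOP2A (-3.19 and -1.94), MKI67 (-1.59 and -0.84), MCM2 (-1.02 and -1.01) and MCM6 (-0.87 and -0.81). The MKI67 fall in LP-1-eGFP was lost without any of 3 arrays, at adjusted p-values up to 0.0937. Of 9 plasma cell markers 7 fell in each line, with a median of -1.47 in both, and 1 rose in LP-1-cIAP2-eGFP. The 1 B cell marker tested and 1 of 3 epithelial markers also rose in LP-1-cIAP2-eGFP, and 1 of 2 myeloid markers fell in LP-1-eGFP. The part of these genes in the folate and purine values was not tested. Fewer cells making a transcript and less of it per cell cannot be told apart in these bulk samples.

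CTH, the transsulfuration enzyme that makes cysteine, ran against that fall. In LP-1-eGFP it rose by 1.80 ± 0.151 at 6 h (adjusted p = 8.03e-04) and by 2.90 ± 0.151 at 24 h (adjusted p = 8.73e-06). The rises in the LP-1-cIAP2-eGFP line were 1.28 (adjusted p = 0.00513) and 3.62 (adjusted p = 1.42e-06). Averaged over conditions CTH was higher by 0.64 in the LP-1-cIAP2-eGFP line (adjusted p = 3.37e-04), as was AHCYL2 by 0.59, while AHCY, which hydrolyses S-adenosylhomocysteine, was lower by -0.64 (adjusted p = 0.00957). MAT2A, which makes S-adenosylmethionine, fell at 24 h (-1.98 and -1.16, with LP-1-eGFP first). In the methionine cycle and transsulfuration list, of 10 tested, 2 were higher and 1 lower between the lines, where 9.04% and 12.7% of all genes were. Of 9 serine lipid genes limma called 0 between the lines, and at 24 h SERINC1 (0.86 and 0.89) and SERINC3 (0.83 and 0.80) rose and PTDSS1, a phosphatidylserine synthase, fell (-0.57 and -0.43), with LP-1-eGFP first. The PTDSS1 fall in LP-1-cIAP2-eGFP was lost without either untreated array of that time (adjusted p = 0.128 and 0.0503).

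**Figure D4:**
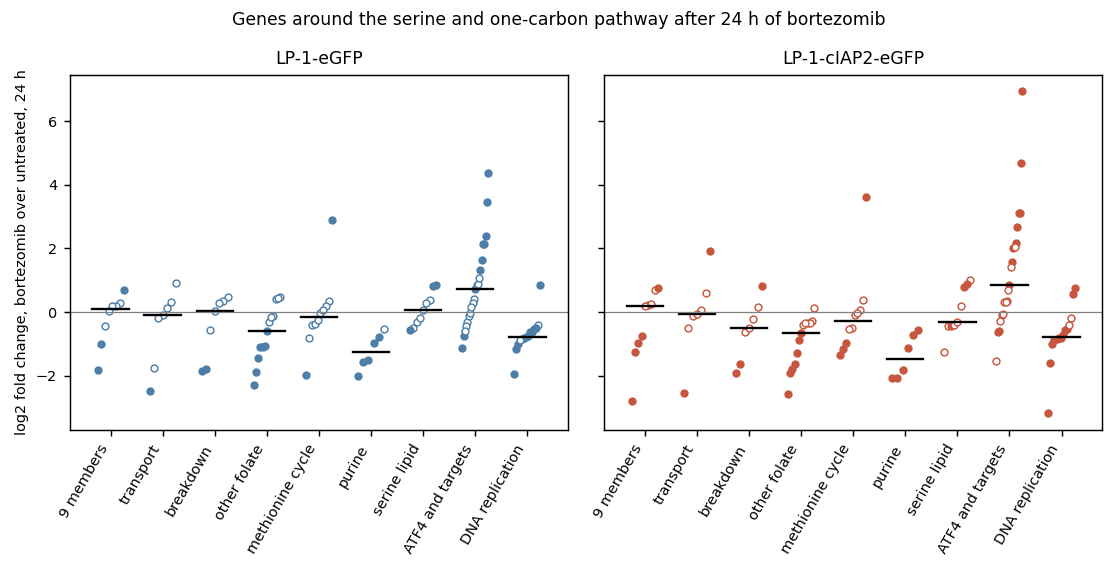
Log2 fold change of bortezomib-treated over untreated cells at 24 h (vertical axis) for each tested gene of the 9 members and of 8 lists of related genes, in LP-1-eGFP (left) and LP-1-cIAP2-eGFP (right). Filled points have an adjusted p below 0.05, black lines are medians, and PSAT1 is left out on the left. The purine medians lie at -1.24 and -1.48, and CTH stands apart in the methionine list at 2.90 and 3.62.

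Of the 21 ATF4-related genes tested, a list that holds no member, more rose than fell with bortezomib in both lines. At 6 h 9 rose and 0 fell in LP-1-eGFP, with a median of 1.53, and 5 rose and 0 fell in LP-1-cIAP2-eGFP, with a median of 1.22, where 1.91% and 1.11% of all genes rose. At 24 h 8 rose and 2 fell in LP-1-eGFP, where 13.3% and 15.1% of all genes did, and 9 rose and 2 fell in LP-1-cIAP2-eGFP, where 14.4% and 22% did. The stress factors ATF3 (4.38 and 6.96) and DDIT3 (3.47 and 4.70), the cystine transporter SLC7A11 (2.40 and 3.12) and the stress-induced SESN2 (2.13 and 3.1) rose at 24 h in LP-1-eGFP and LP-1-cIAP2-eGFP. Leaving out an array, the LP-1-eGFP values ran from 3.4 to 5.36 for ATF3 and from 2.49 to 4.46 for DDIT3. Those of LP-1-cIAP2-eGFP ran from 6.83 to 7.08 and from 4.35 to 5.04. The SLC7A11 rise in LP-1-eGFP passed narrowly (adjusted p = 0.0444) and was lost without any of 11 arrays, with estimates from 0.99 to 3.81. The SLC7A11 rise in LP-1-cIAP2-eGFP was lost without 1 array (2.47, adjusted p = 0.0888), and the SESN2 rise in LP-1-eGFP without any of 3 (adjusted p up to 0.111), with estimates from 1.1 to 3.15 over all arrays left out. Between the lines 5 of the 21 were lower in LP-1-cIAP2-eGFP, where 12.7% of all genes were, and 1, ALDH18A1, was higher (0.68, adjusted p = 1.02e-04), where 9.04% were. ATF4 itself differed by -0.13 (adjusted p = 0.37). NUPR1 was lower by -4.42 (adjusted p = 1.32e-06) and VLDLR by -2.35 (adjusted p = 0.00352). Both were well above background on 8 LP-1-eGFP and 3 LP-1-cIAP2-eGFP arrays, with 1 NUPR1 array missing. Much of the LP-1-cIAP2-eGFP signal was near background, so that neither value is an exact difference. The other VLDLR probe gave -0.78. SESN2 was lower by -0.96 (adjusted p = 0.0439), a call that was lost without any of 12 arrays.

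Among the genes whose means over the 8 conditions were most like those of PSAT1 were FSTL5 (Pearson r = 0.984), EMC10 (0.984) and EVI2A (0.982). These values describe 8 condition means that share their arrays and are mostly set by the difference between the lines. The 4 LP-1-eGFP means of PSAT1 are not above background, and FSTL5 was above background on 0 of 8 arrays there and on 4 of 8 in LP-1-cIAP2-eGFP, so that these values follow largely from how PSAT1 was chosen.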

How the data were processed

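RNA from every sample was hybridised to single-colour Agilent SurePrint G3 human arrays. The deposited intensity values came, per the file headers, from Agilent Feature Extraction 10.7.3.1, which subtracts background. As an alternative served the authors' deposited log2 table, quantile normalized in GeneSpring and centred by probe. Here outlier spots were left out, log2 signals of repeated spots were averaged, and arrays were quantile normalized with limma 3.58.1 (R 4.3.3). The fit took the 33731 probes for which some condition had both its arrays well above background. limma fitted a mean for each of the 8 conditions with 1.61 prior degrees of freedom. RefSeq accessions gave 28174 probes (55.7%) a gene name. With 2 arrays per condition, their number limits the precision. Members and lists were chosen with earlier results of these data known. From each list the text names up to 4 genes with the largest called line difference and up to 4 with the largest 24 h response called the same way in both lines. SLC38A2, SLC1A5, ATF4, RRM1, RRM2, the cell type markers, the 24 h value of SDSL and the 6 h values of CTH were added after their values were seen, and genes most like PSAT1 by their correlation. A few genes that these rules select are not reported here. The fit was tested on simulated data.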

Additional observations from a re-analysis of the deposited data

Results flagged for a closer look

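In untreated cells, each line has 4 arrays over the 2 times, and 17 such sets were tested for an array that lies apart from the others, of which chance would mark about 1 in 20. MTHFD2 in LP-1-eGFP read 15.20 on replicate 1 at 24 h against 14.69, 14.64 and 14.63 on the others, a gap of 0.902 of the whole range. MTHFD1L in LP-1-cIAP2-eGFP read 10.83 on replicate 2 at 24 h against 11.07, 11.07 and 11.06, a gap of 0.95 of the range. The cause was not tested. Both groups mix 6 h and 24 h, and both arrays that lie apart are 24 h arrays.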

How the results depend on the processing

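The opposed PSAT1 and PHGDH signals kept their direction under all alternatives run, and so did the 24 h falls of SHMT1 and MTHFD1. With 2 arrays per condition, calls near the threshold move with the setting, and the cause was not tested. The fits on 1 slide have few arrays and little power. Their averaged line differences cover only the conditions that both lines share on that slide.

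Of 8 members, 4 were called between the lines on average, 0 on slide 1 alone, 1 on slide 2 alone, 2 with an additive model and 3 to 5 leaving out an array. Of 32 single-condition differences, 7 were called, 4 with no filter on signal, 4 with slide as a block, 0 on slide 1 or slide 2 alone, 11 with array weights and 4 to 15 leaving out an array. At 6 h 3 members were called in LP-1-eGFP, 1 with no filter, 1 with the slide block, 0 on slide 2, 6 with array weights and 0 to 3 leaving out an array. In LP-1-cIAP2-eGFP 1 was called, 2 with 75th percentile scaling, 0 with no filter, 3 with probes above background on all arrays, 2 with a replicate block, 0 with the slide block, 0 on slide 1, 3 with array weights and 0 to 3 leaving out an array. At 24 h 3 were called in LP-1-eGFP, 0 on slide 2 and 2 to 4 leaving out an array, and 5 in LP-1-cIAP2-eGFP, 0 on slide 1, 2 with array weights and 3 to 6 leaving out an array. The difference of responses gave 0, and 0 to 3 leaving out an array. With the study's cutoffs the 3-way analysis called 1 and 0 on slide 2, and the 2-group comparison called 1 and 2 on slide 2. On slide 2 the LP-1-cIAP2-eGFP arrays are all untreated and the LP-1-eGFP arrays are both treated and untreated. The 2-group comparison there therefore mixes line with treatment.

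The correlation of same-numbered deviations over 28 pairs of conditions ran from -0.113 to 0.236 and 7 were over 0.1. No strong shared shift was seen, but this cannot show whether same-numbered replicates were handled together. The replicate block moved the count above from 1 to 2 members.

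Reversals were limited to values that were not called. With 75th percentile scaling the LP-1-eGFP responses were -0.02 for PSPH at 24 h, 0.07 for MTHFD1 at 6 h, -0.09 for MTHFD2 and -0.03 for SLC1A4 at 24 h, and MTHFD2 was -0.08 at 24 h in LP-1-cIAP2-eGFP, or -0.16 with normexp. The authors' table gave -0.02 for SLC1A4 in LP-1-eGFP at 24 h. On slide 1 alone PSAT1 at 24 h was -0.01, SHMT1 between lines with bortezomib at 24 h was 0.05, SHMT2 between lines was 0.00 and SLC1A4 between untreated lines at 6 h was -0.06. On slide 2 alone MTHFD1L between lines was 0.00, and averaged probes gave -0.02 for PSAT1 at 24 h. Leaving out an array, the 24 h responses ran from -0.05 to 0.47 for PSAT1 and -0.03 to 0.50 for PHGDH in LP-1-cIAP2-eGFP, and in LP-1-eGFP from -0.31 to 0.70 for PSPH, -0.07 to 0.44 for MTHFD2 and -0.16 to 0.19 for SLC1A4. The line difference ran from -0.55 to 0.26 for SHMT1 with bortezomib at 24 h, from -0.21 to 0.01 for MTHFD1L on average and from -0.04 to 0.06 for SLC1A4 untreated at 6 h.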
